A study of Mus musculus with 8 samples.

Results

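Jak and Stat signalling genes were followed across 4 genotypes of mouse testis. They are the Janus kinases Jak1, Jak2 and Jak3 and the transcription factors Stat2, Stat3, Stat5a, Stat5b and Stat6. Every probe set annotated to one of these 8 symbols was taken, which gave 11 of the 12488 probe sets in the table. Of these, 10 carried a single symbol and belonged to 7 of the 8252 genes represented in that way, and 1 was annotated to Jak3 and Insl3 together. No probe set in the table used here was annotated to Stat2, so it is not analysed here. Jak1 was chosen by its measured signal, which was higher on the Ku86 knockout arrays, so its values between Ku86 labels are a description without a test.

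Total RNA from testis had been hybridised to Affymetrix MG_U74Av2 arrays, 2 per genotype and 8 in all. By their labels the groups were Ku86(+/+);Terc(+/+) (wild type), Ku86(+/+);G3-Terc(-/-) (Terc knockout), Ku86(-/-);Terc(+/+) (Ku86 knockout) and Ku86(-/-);G3-Terc(-/-) (double knockout). Ku86 is the product of Xrcc5 and binds broken DNA ends, Terc is the RNA template of telomerase, and G3 is read here as generation 3 without Terc. Age, strain and the cells in which the alleles were lost are not stated in these sources. Scanner records call the material germ cells, list 15 micrograms of cRNA per array, name 3 sample codes pooled for double knockout replicate 1 and a single code for each other array, and describe wild type replicate 1 as a repeat after high background. Nothing says how independent the other arrays were, so p-values measure the spread between these samples only.

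The receptors of many cytokines and of some hormones have no kinase of their own and carry Jak kinases on their inner tails. A bound ligand brings the Jaks together, they phosphorylate the receptor, and Stat proteins dock there, are phosphorylated, pair and enter the nucleus to bind DNA. Socs, Pias and phosphatase proteins turn the signal off. In the testis Lif, growth hormone, prolactin and interleukin-6 type signals pass through this route, and Stat3 is known for its part in the differentiation of spermatogonia.

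The upstream sequences of Jak1 and Stat3 are shown because Jak1 had the largest difference between Ku86 labels among the members and Stat3 was the member whose brighter probe set exceeded wild type on every knockout array. Each is the 250 bases before the annotated start in RefSeq, build GRCm38.p6, minus strand, at chr4:101265224-101265473 and chr11:100939541-100939790. Capitals mark the GC box GGGCGG, searched on both strands.
Jak1: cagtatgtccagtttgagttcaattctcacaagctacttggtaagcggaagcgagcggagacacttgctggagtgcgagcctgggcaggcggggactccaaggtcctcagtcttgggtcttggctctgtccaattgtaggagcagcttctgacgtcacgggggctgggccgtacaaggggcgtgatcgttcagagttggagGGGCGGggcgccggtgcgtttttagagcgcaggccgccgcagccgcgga
Stat3: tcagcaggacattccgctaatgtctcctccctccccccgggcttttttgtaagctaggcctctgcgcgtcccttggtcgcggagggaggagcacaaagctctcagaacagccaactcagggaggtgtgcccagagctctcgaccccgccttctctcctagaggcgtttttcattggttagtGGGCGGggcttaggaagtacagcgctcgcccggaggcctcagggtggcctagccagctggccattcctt
The GC box began 49 bases before the Jak1 start and 69 bases before the Stat3 start. Of 13 such windows of the Jak and Stat families, several genes having more than 1 start and Tyk2, Stat2 and Stat4 included, 8 held it, against 32.7% of the 32851 windows in the RefSeq table. The palindromic Stat site TTCNNNGAA was found in 0 of the 13 windows and in 7.02% of all windows, which says only that these letters are not in this stretch. The same site with a spacer 1 base longer was found in 1 window, that of Stat2, and in 5.85% of all windows. Jak1 lies on chromosome 4. Stat5b, Stat5a and Stat3 lie side by side on chromosome 11 with 0 protein-coding genes between neighbours in the same annotation.

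Signals are given in arbitrary intensity units, as scaled by the authors. For fits, values under a floor of 11.8 (the pooled 20th percentile) were raised to it before taking log2. Probe sets with a mean signal under 38.1 (the pooled 40th percentile) were left out, and 7556 were tested with limma. A probe set was called where its p, after Benjamini-Hochberg adjustment across all 7556, was below 0.05. Precision is limited by the 8 arrays. Xrcc5, which encodes Ku86, read from 259 to 458.8 on the 4 arrays labelled Ku86 knockout or double knockout and from 11.1 to 75.6 on the other 4. That is opposite to the loss of a transcript. Where the probes lie relative to the deletion is not known here. Ku86 genotypes are therefore named by their labels. Some testis germ cell genes were bright, with the protamine Prm1 between 13783.2 and 18506.5. Others were dim: the protamine Prm2 read from 45.6 to 155.4, Kit from 35.6 to 82.5 and Sycp3 from 0.7 to 9.3. Sertoli cell genes also gave signal on arrays recorded as germ cells. Of 10 listed markers 9 had a probe set, and all 9 passed the filter. They ran from Amh, at 29.6 to 49.4, to Clu, at 396.8 to 1409.6. The arrays were scanned on 3 days: replicate 1 of the Ku86 knockout and of the double knockout on day 1, replicate 1 of wild type on day 3, and the remaining 5, from all 4 genotypes, on day 2. The chip lot changed with the day.

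Limma called 0 of the tested Jak and Stat probe sets in any of the 8 contrasts. Of the 11 probe sets 6 passed the filter, those of Jak1, Jak3, Stat3 (2 probe sets) and Stat5a (2 probe sets). In the Terc knockout against wild type 0 of 6 were called, against 0.0265% of all probe sets, and 1 of 6 had an unadjusted p under 0.05, against 7.07%. Jak1, 1 of these 6, was under the filter signal on every array of that contrast. In the Ku86 knockout against wild type, leaving out Jak1, 0 of 5 were called (0.0397% of all) and 0 had an unadjusted p under 0.05 (5.98%). In the double knockout against wild type 0 of 5 were called (0.0265% of all) and 1 had an unadjusted p under 0.05 (8.62%). These comparisons share the wild type arrays. Arrays not overlapping with wild type, in the higher direction, were found for both Stat3 probe sets in the Terc knockout (25.6% of all probe sets) and in the Ku86 knockout (24.6%), and for Stat3 99099_at and Stat5a 100423_f_at in the double knockout (23.4%). With 2 arrays against 2 such gaps are common. For Terc loss averaged over the Ku86 genotypes 0 of 6 were called (0.0132% of all), with 0 at an unadjusted p under 0.05 (5.31%) and 0 higher without overlap (1.63%). Jak1 is 1 of these 6 too, and its arrays without the Ku86 knockout label were under the filter signal. For Ku86 loss averaged over the Terc genotypes the counts were 0 of 5 (0% of all) and 0 (5.13%). The double knockout had 0 of 6 called against the Ku86 knockout (0% of all, and 0 members at an unadjusted p under 0.05 against 3.45%). There 3 of 6, Jak1, Stat3 99099_at and Stat5a 100423_f_at, were higher without overlap, against 15.5% of all. Against the Terc knockout the double knockout had 0 of 5 called (0%, and 0 against 4.29%). In that contrast Stat3 99100_at was lower without overlap, as were 17% of all probe sets. The interaction had 0 of 5 (0%, and 0 against 5.13%).

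**Figure D1:**
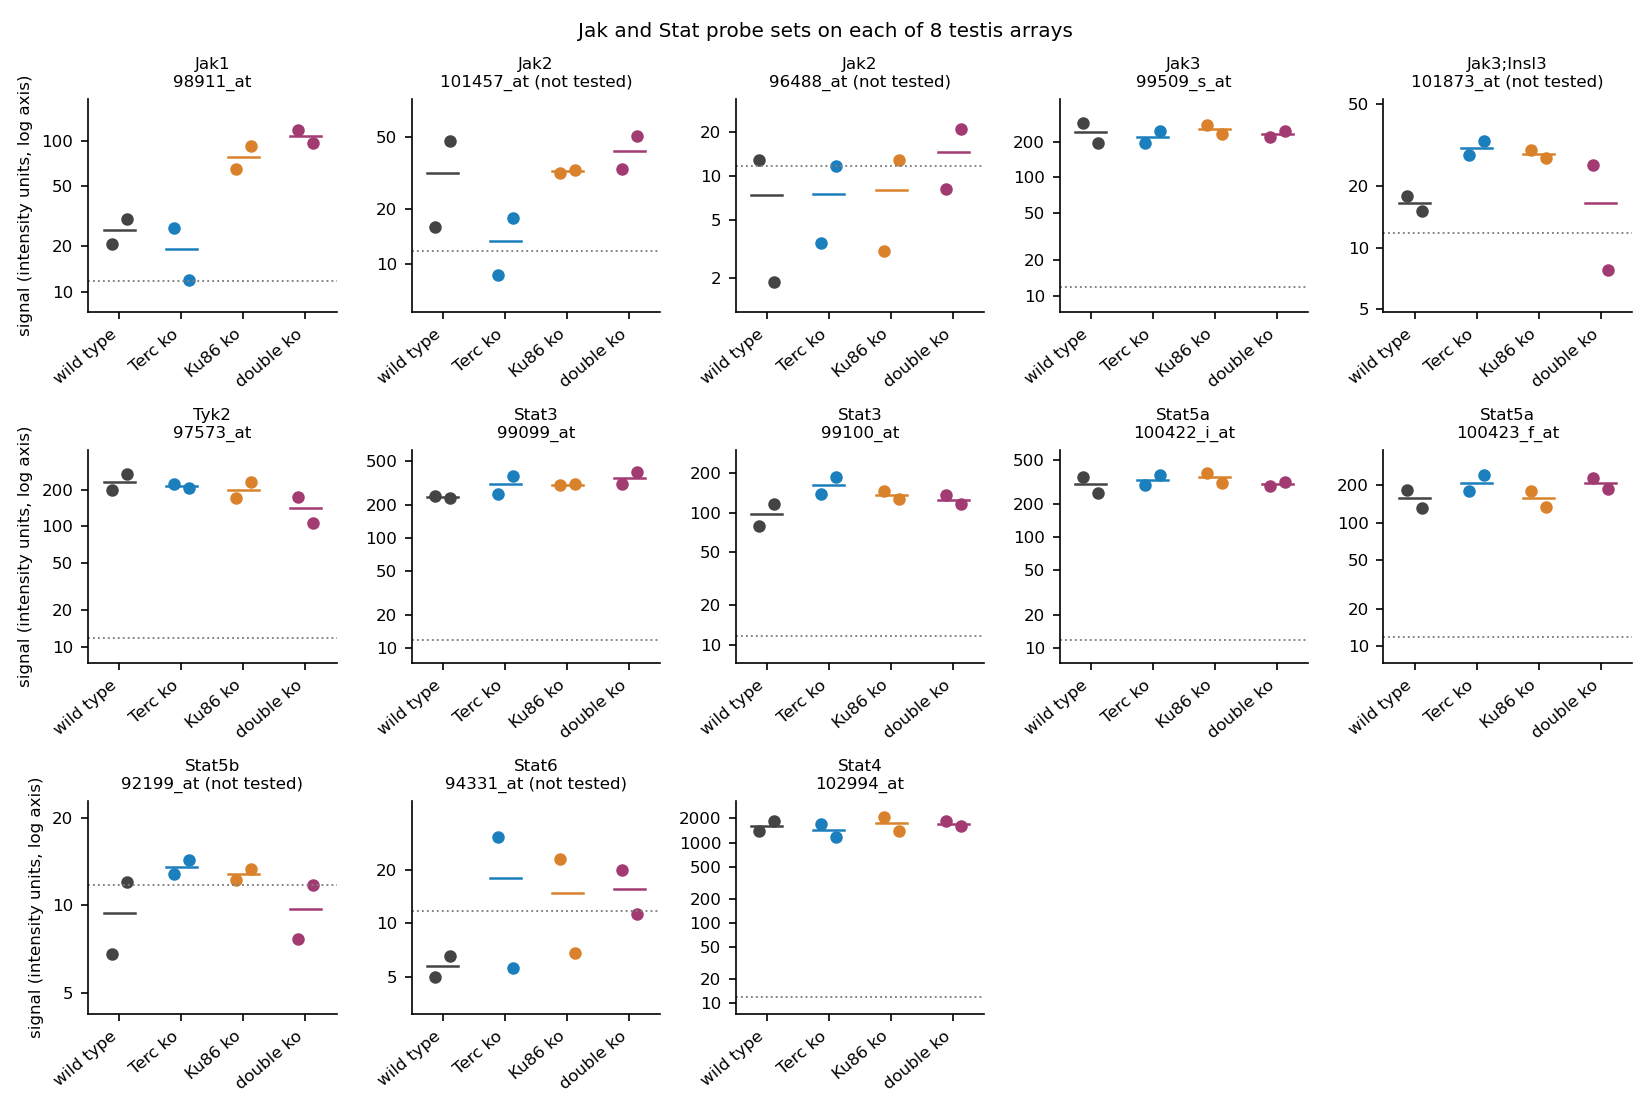
Signal of each Jak and Stat probe set on the 8 arrays by genotype (intensity units, log axis, axes differ between panels), with points for arrays, bars for the mean of 2 arrays and a dotted line for the floor of 11.8. Jak1 is between 65.0 and 118.5 on the 4 arrays with the Ku86 knockout label and between 11.9 and 30.3 on the other 4, while Jak3, Stat3 and Stat5a overlap between the Ku86 labels.

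Among the kinases, Jak1 serves the receptors of interferons, interleukin-6 type cytokines and the common gamma chain. Its probe set (98911_at) read 20.7 and 30.3 in wild type, 26.6 and 11.9 in the Terc knockout, 65.0 and 92.3 in the Ku86 knockout, and 118.5 and 96.6 in the double knockout. All 4 arrays labelled Ku86 knockout or double knockout were above the other 4, and the lowest of them was 2.15 times the highest of the others. Such a gap, in the higher direction, was found for 1.67% of all probe sets, and nothing is read from it because this pattern chose the gene. The means were 93.1 ± 22.0 and 22.4 ± 8.03 (SD, n = 4 each), a ratio of 4.16, and the fitted log2 difference was 2.11. Every array without the Ku86 knockout label was under 38.1, so Jak1 passed the filter through the arrays where it was high.

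Jak1 was chosen by its higher signal on the arrays with the Ku86 knockout label, so its values under other settings are a description only. A gap that persists is no support for a change, because the choice used these same arrays. Jak1 values without the arrays of days 1 and 3 kept the same order. Within scan day 2 the Ku86 knockout array read 92.3 and the double knockout array 96.6, against 30.3 in wild type and 26.6 and 11.9 in the Terc knockout, and the log2 difference between Ku86 labels was 2.02. It ran from 1.82 to 2.40 when each array was left out in turn. With the floor added as an offset in place of being set, it was 1.63. There was no other Jak1 probe set to set beside it.

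What the choice of Jak1 did not use was its response to Terc. Averaged over the Ku86 genotypes, Jak1 differed between Terc labels by -0.01 ± 0.41 on the log2 scale (SE, 95% interval -0.90 to 0.87; limma adjusted p = 0.997). That average joins 2 differences of opposite sign, -0.49 without the Ku86 knockout label and 0.47 with it. The first of them rests on arrays under the filter signal, so nothing is read from an average near 0. In the Terc knockout against wild type all 4 arrays read under the filter signal. Jak1 is counted there among the 6 tested probe sets, but nothing is read from its log2 difference of -0.49. The arrays overlapped, and it was -0.77 within scan day 2 and ran from -1.07 without Terc knockout replicate 1 to 0.09 without Terc knockout replicate 2. In the double knockout against the Ku86 knockout it differed by 0.47 ± 0.57 (SE), and limma did not call it. It was 0.07 within scan day 2 and ran from 0.21 without Ku86 knockout replicate 1 to 0.72 without Ku86 knockout replicate 2. The 2 arrays of each did not overlap there, as for 15.5% of all probe sets in the higher direction. The genotype means of Jak1 thus ran from 19.2 ± 10.4 in the Terc knockout through 25.5 ± 6.79 in wild type and 78.7 ± 19.3 in the Ku86 knockout to 108 ± 15.5 in the double knockout (SD, n = 2 each).

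Markers of somatic testis cells also varied between these arrays. The summed signal of the 5 peritubular and vascular markers was 390.8 to 902.7 on the arrays with the Ku86 knockout label and 231.0 to 515.8 on the others, with 4 of 4 tested markers higher in the averaged Ku86 contrast and none at the floor on every array. That of 9 Sertoli cell markers was 1749.9 to 3549.1 against 1459.1 to 2388.2 (7 of 9 higher), and that of 5 Leydig cell markers 765.3 to 1632.8 against 778.0 to 1445.0 (4 of 5 higher). Summed macrophage and lymphoid markers, 6 with a probe set, were 176.3 to 223.8 against 161.8 to 262.3 (0 of 2 tested higher). The variation was not limited to somatic cells: summed spermatogonia markers were 409.1 to 815.1 against 327.9 to 617.2 (2 of 2 tested higher). In the same contrast 1 of 3 tested spermatocyte markers was higher, with 1 of 4 for round and 2 of 4 for elongating spermatids. Of the erythroid markers 0 of 2 were higher. The median log2 difference of all tested probe sets in that contrast was 0.03, so differences above 0 were common. The sums of all these lists overlapped between the labels, and the part of these markers in the Jak1 difference was not tested. In whole testis RNA, fewer cells of a type and less RNA per cell cannot be told apart.

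The genes whose log2 signal was most like that of Jak1 over the 8 arrays were Gtf2h1, a subunit of the transcription and repair factor TFIIH (Pearson r = 0.969), S100a10, the partner of annexin A2 (0.95), Xrcc5 itself (0.949), Hspa5, the main chaperone of the endoplasmic reticulum (0.939), and Akap8, a nuclear anchor of protein kinase A (0.939). These are the 5 highest values among all tested probe sets with 1 symbol, given as a description. Gtf2h1 read 366.7 and 448.9 in wild type, 459.9 and 362.3 in the Terc knockout, 597.8 and 628.2 in the Ku86 knockout, and 684.6 and 582.0 in the double knockout. Xrcc5 read 46.3 and 75.6, then 71.2 and 11.1, then 419.9 and 458.8, then 259.0 and 423.3 in the same order. Jak1 and Xrcc5 shared their lowest array, Terc knockout replicate 2.

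**Figure D2:**
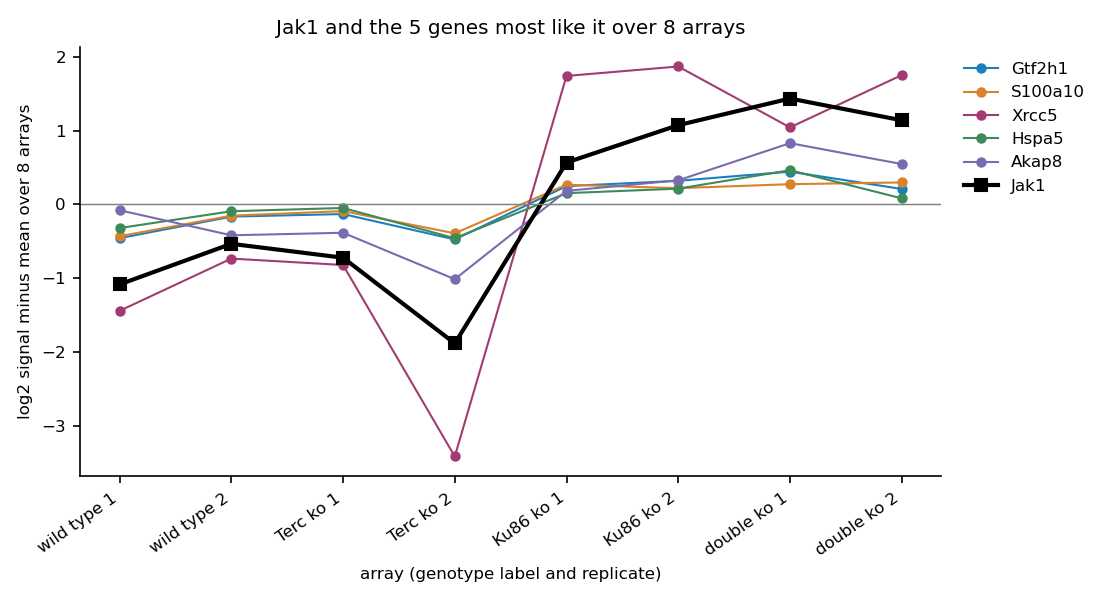
Log2 signal of Jak1 (black squares) and the 5 genes with the highest Pearson correlation to it, each minus its own mean over the 8 arrays, by array. Lines join the points of a gene for reading only, since arrays have no order. Jak1 and Xrcc5 have the widest spread of the 6 and both are lowest on Terc knockout replicate 2, at 11.9 and 11.1 before the floor.

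Jak2 transmits erythropoietin, growth hormone and prolactin signals, and both of its probe sets were too dim for the main test. The brighter one (101457_at) read 15.9 and 47.5 in wild type, 8.7 and 17.8 in the Terc knockout, 31.5 and 32.8 in the Ku86 knockout, and 33.0 and 50.4 in the double knockout. Wild type spanned nearly the whole range, so the Ku86 labels overlapped. With no filter its difference between Ku86 labels was 0.86 ± 0.42 (SE, 95% interval -0.21 to 1.93; limma adjusted p = 0.91). Its other probe set (96488_at) lay at or under the floor on 5 of 8 arrays and never exceeded 21.1.

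Jak3 pairs with the common gamma chain of lymphocyte cytokine receptors. Its probe set (99509_s_at) was evenly expressed, at 287.1 and 196.1 in wild type, 194.4 and 246.8 in the Terc knockout, 274.6 and 233.8 in the Ku86 knockout, and 217.2 and 245.0 in the double knockout. The difference was 0.09 ± 0.19 between Ku86 labels (SE, 95% interval -0.33 to 0.50; limma adjusted p = 0.977) and -0.13 ± 0.19 between Terc labels (SE, 95% interval -0.54 to 0.29; adjusted p = 0.987). The probe set annotated to Jak3 and the Leydig cell hormone Insl3 together (101873_at) read from 7.8 to 33.1 and cannot be given to either gene.

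Stat3, the transducer of interleukin-6 and Lif signals, had 2 probe sets above the filter. The brighter one (99099_at) read 239.4 and 231.3 in wild type, 252.3 and 361.8 in the Terc knockout, 302.5 and 307.0 in the Ku86 knockout, and 308.3 and 393.4 in the double knockout. Each of the 6 knockout arrays was above both wild type arrays, a pattern that 7.81% of all probe sets showed in this direction and that was counted after the values had been seen. Summed Sertoli cell markers were also lowest in wild type, at 1459.1 and 1542.3 against 1749.9 to 3549.1 on the knockout arrays. The peritubular and vascular sums were 231.0 and 282.6 against 348.5 to 902.7. Both sums were highest in the double knockout. Leydig cell sums overlapped wild type (778.0 and 936.6 against 765.3 to 1632.8), as did macrophage and lymphoid sums (161.8 and 227.9 against 176.3 to 262.3). Spermatogonia sums also overlapped (327.9 and 445.8 against 409.1 to 815.1), and so did those of the later germ cell and erythroid lists. Within the Terc knockout and the double knockout, replicate 2 was the higher for Stat3 but replicate 1 for the Sertoli sum. The peritubular and vascular sum was higher on replicate 1 of the Terc knockout and on replicate 2 of the double knockout. Such sums follow the brightest markers most: within the Sertoli cell list Clu read 396.8 to 1409.6 and Amh 29.6 to 49.4. The part of these markers in the Stat3 values was not tested. Against wild type the log2 difference was 0.36 ± 0.25 in the Terc knockout, 0.37 ± 0.25 in the Ku86 knockout and 0.57 ± 0.25 in the double knockout (SE; limma adjusted p = 0.705, 0.802 and 0.564).

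The Stat3 differences depended on the scaling of the arrays. In the double knockout the value of 0.57 became 0.47 after quantile normalization and 0.30 after median centring, and in the Terc knockout 0.36 became 0.27 and 0.03. Relative to wild type, all tested probe sets together had a median shift of 0.11 (Terc knockout) and 0.08 (double knockout) as deposited, near 0 after quantile normalization, and -0.22 and -0.19 after median centring, which moves every probe set alike. The dimmer Stat3 probe set (99100_at) read 79.0 and 116.6 in wild type, 137.7 and 185.6 in the Terc knockout, 144.9 and 125.8 in the Ku86 knockout, and 134.5 and 115.3 in the double knockout. Its highest genotype mean and its highest single array were therefore in the Terc knockout, where the brighter probe set was not highest. Ku86 knockout replicate 1 (144.9) still read above Terc knockout replicate 1 (137.7). It differed from wild type there by 0.74 ± 0.31 (SE, limma adjusted p = 0.67), by 0.46 within scan day 2, and between 0.46 and 1.02 with arrays left out in turn. The double knockout gave 0.38 ± 0.31 (SE, adjusted p = 0.807) for the same probe set, but scan day 2 alone gave -0.02. Over the 8 arrays the Stat3 probe sets had a Pearson r of 0.499 and a Spearman rho of 0.262.

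The wild type array that lowers the dimmer Stat3 probe set is replicate 1, scanned alone on day 3. The double knockout difference of that probe set was 0.10 when it was left out and came to 0.66 when wild type replicate 2 was. The genes most like the brighter Stat3 probe set were the splicing factor Sf1 (r = 0.967), the plasminogen receptor Plgrkt (0.956) and Mcm4, a subunit of the replicative helicase (0.939), each over 8 arrays.

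Stat5a carries prolactin and growth hormone signals, and it has a close paralog in Stat5b, with which its probes could share RNA. Its probe set 100422_i_at read 351.5 and 250.8 in wild type, 297.4 and 362.8 in the Terc knockout, 382.4 and 310.1 in the Ku86 knockout, and 289.8 and 316.3 in the double knockout, with every genotype overlapping wild type. The difference was 0.05 ± 0.18 between Ku86 labels (SE, 95% interval -0.34 to 0.44) and -0.02 ± 0.18 between Terc labels (SE, 95% interval -0.41 to 0.37). Probe set 100423_f_at read 184.6 and 130.3 in wild type, 179.3 and 242.0 in the Terc knockout, 181.0 and 133.1 in the Ku86 knockout, and 229.6 and 188.6 in the double knockout. Its 4 arrays with the Terc knockout label averaged 209.9 ± 30.6 and the other 4 averaged 157.3 ± 29.6 (SD, n = 4 each). The values overlapped only between 179.3 and 184.6, and the log2 difference was 0.42 ± 0.21 (SE, 95% interval -0.04 to 0.89; limma adjusted p = 0.965). The Stat5a probe sets thus gave different differences between Terc labels, and their Pearson r was 0.489 (rho 0.429, n = 8).

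Among pairs of tested members the highest correlation was that of Jak3 with Stat5a (100422_i_at), with r = 0.86 and rho = 0.857 over 8 arrays, given as a description. Both were high on wild type replicate 1, Terc knockout replicate 2 and Ku86 knockout replicate 1, in 3 genotypes and on 3 scan days. Jak1 had r = -0.048 with Jak3 and 0.327 with the brighter Stat3 probe set. The genes most like Jak3 were Mrpl9, a mitochondrial ribosomal protein (r = 0.94), Mcrip1 (0.915) and Htt, huntingtin (0.907). Those most like Stat5a were Eef1akmt1, a methyltransferase of an elongation factor (0.941), Sh3bp1, a regulator of small GTPases (0.94), and the kinase Prkd2 (0.925).

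Stat5b and Stat6 were near the floor. Stat5b (92199_at), the growth hormone transducer in liver, read from 6.8 to 14.3 and lay at or under 11.8 on 3 of 8 arrays, although its neighbours Stat5a and Stat3 read well above it. Levels of different probe sets are not compared, so this says only that the Stat5b probe set gave almost no range to measure. Stat6 (94331_at), the interleukin-4 transducer, lay at or under the floor on 5 of 8 arrays. It read 5.0 and 6.6 in wild type and was above the floor on Terc knockout replicate 1 (30.3), Ku86 knockout replicate 1 (22.9) and double knockout replicate 1 (19.8). The other array of each of these genotypes read 5.6, 6.8 and 11.3.

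**Figure D3:**
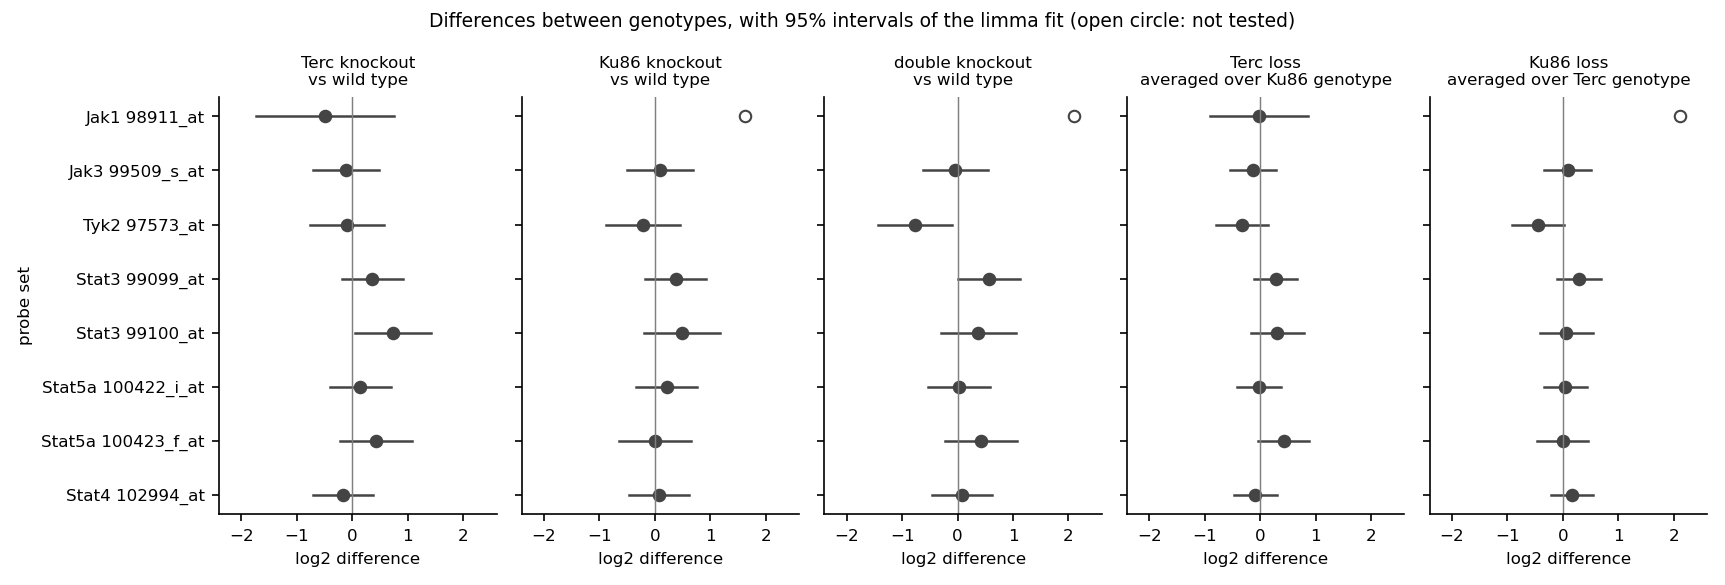
Fitted log2 differences of the tested Jak and Stat probe sets, with Tyk2 and Stat4, in 5 contrasts (positive is higher in the knockout label). Filled points have 95% intervals from limma, and open circles are Jak1 in contrasts that chose it, shown without an interval. All intervals include 0 except those of Stat3 99100_at in the Terc knockout and of Stat3 99099_at and Tyk2 in the double knockout against wild type, and 0 of these were called. The Jak1 interval in the Terc knockout against wild type rests on arrays under the filter signal, and that for averaged Terc loss rests on them in part.

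Of the remaining family genes, Tyk2 and Stat4 had a probe set each. Tyk2, the kinase of interferon and interleukin-12 receptors, read 201.7 and 269.8 in wild type, 225.4 and 210.2 in the Terc knockout, 172.2 and 232.0 in the Ku86 knockout, and 174.7 and 106.8 in the double knockout. The double knockout arrays were below both wild type arrays, as for 13% of all probe sets, with a log2 difference of -0.77 ± 0.31 (SE, limma adjusted p = 0.49). It was -1.34 within scan day 2 and -0.42 without double knockout replicate 2. Between Ku86 labels Tyk2 differed by -0.45 ± 0.22 (SE, adjusted p = 0.909). Stat4, the transducer of interleukin-12, was bright throughout, from 1181.4 to 2069.9, and its differences between Ku86 labels and between Terc labels were 0.17 ± 0.18 and -0.09 ± 0.18 (SE, adjusted p = 0.942 and 0.994).

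The rest of the pathway was taken as 109 genes in lists of ligands, receptors, inhibitors, adaptors and cofactors, and targets. Of these, 95 had a probe set with 1 symbol and 41 passed the filter. Most cytokine ligands and receptors were too dim, with 6 of 21 ligands and 9 of 30 receptors tested. Limma called 0 of the 41 in either direction for Terc loss and 0 for Ku86 loss, both averaged. With the unadjusted threshold of 0.05, 0 were higher and 3 lower for Terc loss, against 4.26% and 1.05% of all probe sets. For Ku86 loss 1 was higher and 1 lower, against 3.48% and 1.65%. The median log2 difference of the 41 genes was 0.01 for Terc loss and 0.03 for Ku86 loss, beside 0.04 and 0.03 for all probe sets tested.

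Among ligands, Prl (prolactin) read 71.0 and 75.0 in wild type, 113.0 and 136.6 in the Terc knockout, 97.1 and 123.2 in the Ku86 knockout, and 38.7 and 19.8 in the double knockout. Both single knockouts were above wild type, as were 25.6% of all probe sets in the Terc knockout and 24.6% in the Ku86 knockout. The double knockout was below wild type, as for 13% of all. Its averaged difference between Ku86 labels was -0.79 ± 0.29 (SE, limma adjusted p = 0.886), and its interaction was -2.75 ± 0.59 (SE, adjusted p = 0.805). Among receptors, Epor, the erythropoietin receptor, read 143.4 and 114.9 in wild type and 28.9 and 48.4 in the Terc knockout, but 76.6 and 119.0 in the Ku86 knockout and 96.0 and 139.7 in the double knockout. The low values were those of the Terc knockout alone, and the averaged difference between Terc labels was -0.75 ± 0.28 (SE, limma adjusted p = 0.862). Il6ra, the interleukin-6 receptor that works through Jak1 and Stat3, read 68.1 and 125.2, then 17.6 and 125.8, then 94.2 and 101.1, then 54.6 and 19.6 in the same order of genotypes. It differed between Terc labels by -1.27 ± 0.56 (SE, adjusted p = 0.922). Terc knockout replicate 2 stood with the high arrays, and the value was -0.57 without Terc knockout replicate 1 and -1.98 without replicate 2.

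Among inhibitors, Sh2b3, the adaptor that restrains Jak2, read 1123.0 and 691.3 in wild type, 697.2 and 527.2 in the Terc knockout, 680.9 and 637.5 in the Ku86 knockout, and 476.3 and 519.1 in the double knockout. The averaged difference between Terc labels was -0.47 ± 0.18 (SE, limma adjusted p = 0.862), and it was -0.30 without wild type replicate 1, the brightest array. The feedback inhibitors Cish, Socs1, Socs2 and Socs5 differed between Ku86 labels by -0.05, -0.09, 0.13 and 0.28, and 0 of the 10 tested inhibitors had an unadjusted p under 0.05 in that contrast. Of the 5 adaptors and cofactors tested, 0 had an unadjusted p under 0.05 in either averaged contrast.

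Among targets, Irf1, an interferon response factor induced by Stat proteins, read 12.1 and 41.4 in wild type, 7.6 and 34.9 in the Terc knockout, 36.3 and 84.0 in the Ku86 knockout, and 47.0 and 54.2 in the double knockout. Of the 4 arrays with the Ku86 knockout label, 3 were above all arrays without it. The difference was 1.31 ± 0.58 (SE, limma adjusted p = 0.909), 1.22 on day 2 alone, and 0.87 with wild type replicate 1 left out. Of the 4 arrays without the label 3 were under the filter signal of 38.1, so Irf1 passed the filter through the arrays where it was high, and its difference is no support for a change. Other Jak and Stat targets had differences between Ku86 labels from -0.42 for B2m to 0.12 for the kinase Pim2. Pim1 (0.07), Mcl1 (0.03), Bcl2l1 (-0.18), Junb (-0.12) and Irf7 (-0.03) lay in between.

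**Figure D4:**
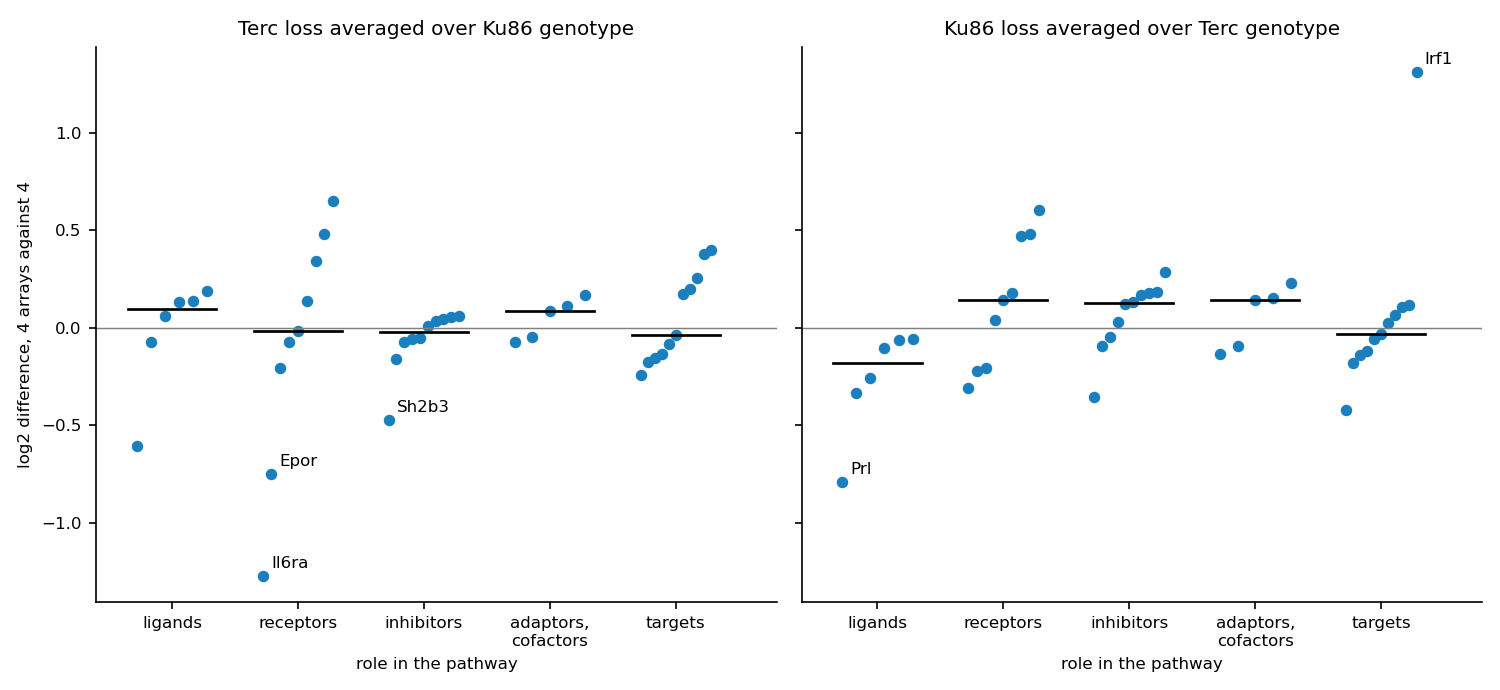
Fitted log2 differences of the tested pathway genes by role, for Terc loss (left) and Ku86 loss (right), each averaged over the other genotype (4 arrays against 4, positive is higher in the knockout label). Points are genes, bars are list medians, and names are given where the unadjusted p was under 0.05, which are values and not calls. Irf1 stands highest in the Ku86 panel at 1.31 and Il6ra lowest in the Terc panel at -1.27.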

How the data were processed

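The authors deposited a table of probe set intensity values on a linear scale, with each array already scaled. A mean trimmed by 2% at either end came to 199.95 or 199.96 on every array, so no further scaling was applied. Which summary software made them is not stated in these sources. The table had 12488 probe sets, from which 66 controls and 4866 dim ones were removed. Gene symbols came from the platform annotation (10855 probe sets with 1 symbol, 396 with several, 1237 with none).

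The test was that of limma 3.58.1 (lmFit, eBayes with a trend) under R 4.3.3, with 1 mean per genotype over all 8 arrays and no covariate, which left 4 residual degrees of freedom. All tests were two-sided. Each pathway gene was represented by its brightest tested probe set. The text names all member probe sets, Tyk2 and Stat4, up to 3 pathway genes per list and direction with the smallest unadjusted p under 0.05 in the averaged contrasts, and the 3 genes (5 for Jak1) most correlated with a member. Members and lists were chosen with earlier results of these data known. Other pathway genes named without p were chosen after their values were seen. The code of the fit was run on simulated data with independent noise and no scan day effect, for the averaged contrasts only. That run says nothing of the contrasts between single genotypes or of scan days.

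Alternatives were quantile normalization, median centring, other floors, no filter, no trend, a block for the experiment number or for the scan day, scan day 2 alone, an adjusted p under 0.1, and each array left out. The replicate number is an experiment number that spans scan days, and same-numbered arrays deviated from their genotype means with correlations from 0.006 to 0.241, so it was not taken as a pairing.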

Additional observations from a re-analysis of the deposited data

Results flagged for a closer look

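Dim probe sets outside the main test gave signals above both wild type arrays and above the floor of 11.8 on both arrays of a knockout genotype. Of all 4866 dim probe sets, 18.5% did so in the Terc knockout and 14.9% in the Ku86 knockout. The probe set annotated to Jak3 and Insl3 together averaged 30.7 in the Terc knockout and 28.5 in the Ku86 knockout, against 16.4 in wild type. In the double knockout it read 25.2 and 7.8, so the rise was not seen on every knockout array, and without the filter the Terc knockout difference was 0.90 ± 0.38 (SE, limma adjusted p = 0.73). The Stat5b probe set averaged 13.6 in the Terc knockout and 12.8 in the Ku86 knockout, against 9.4 in wild type, which is within a few units of the floor. Genotype groups of 2 arrays were too small for a test of single outlying arrays.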

How the results depend on the processing

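The count of called Jak and Stat probe sets was 0 in all 144 combinations of 8 contrasts and 18 alternatives, with a lowest adjusted p of 0.299. That of pathway genes was 0 in 143 of 144 and was 1 in the double knockout against the Terc knockout within scan day 2 alone, where Prl differed by -2.65 (limma adjusted p = 0.00968). That fit has 1 array per genotype except for the Terc knockout, so the others are assumed to vary like it. With the experiment number as a replicate block, 0 member probe sets and 0 pathway genes were called in each contrast. The lowest adjusted p of a member was then 0.445. Because the replicate number did not pair the arrays, that fit is given only here. Leaving out each array in turn kept every count at 0. Of the 48 member differences, 816 alternative values were computed and 0 reversed a called direction, since none was called. Under other settings 33 of these values changed sign or, for Jak1 in the contrasts that chose it, moved by at least 1 SE. With an array left out 51 did so. Mostly these were values of Jak3 and Stat5a, which lay near 0. Low signal limits Jak2, Stat5b and Stat6, whose probe sets were under the filter signal of 38.1 on average. Those of Stat5b and Stat6 and 1 of the 2 of Jak2 lay at or under the floor of 11.8 on 3 to 5 of the 8 arrays. The alternatives for pathway genes were added after the data had been seen.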
